A study of Homo sapiens with 6 samples.

Results

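The genes described here encode the centromere, the kinetochore, the spindle checkpoint and the chromosomal passenger complex, the machinery that ties chromosomes to the mitotic spindle. They were taken as the rows of the deposited files whose symbol matched a fixed list of 39 names, and all 39 were found among the 17452 genes of each file. Levels were measured by poly-A RNA sequencing in MDA-MB-231, an established human line from a triple-negative breast tumour. Of the 6 libraries, 3 came from cells given a control siRNA (siControl) and 3 from cells given siRNA against PHF20L1 (siPHF20L1), a nuclear reader of methylated lysines. Per the labels all cells grew in L-15 medium with 10% FBS, and 1 of 2 lipid reagents carried the siRNA, without a statement of which library had which. Separate cultures are not stated for the replicates, so p-values measure only the spread between these libraries, which may be technical.

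At the centromere, the histone H3 variant CENPA marks the site where a kinetochore is built. A constitutive set of inner proteins (the CCAN, with CENPC, CENPH, CENPI, CENPK and others) sits on it and holds the outer layer, in which the NDC80 complex grips microtubules and the MIS12 complex links it inwards. Checkpoint proteins gather at kinetochores that are not attached and delay anaphase, and Aurora B in the passenger complex releases wrong attachments. Many of these genes are transcribed mostly in late S, G2 and mitosis, so their transcript levels in a culture depend on how many cells are in those phases. In bulk RNA, fewer cells of a phase and less RNA per cell cannot be told apart.

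Values are FPKM (fragments per kilobase of transcript, scaled to the mapped fragments of the library) as deposited. From the steps of the lowest values, depth was estimated at 17100000 to 17600000 fragments per library, so that 1 fragment in a transcript of 1 kb was worth 0.0569 to 0.0585 FPKM. PHF20L1, the targeted gene, stood at 15.75, 12.48 and 12.73 FPKM in siControl and at 2.67, 2.31 and 2.74 FPKM after knockdown, so every library followed its label. The line's mesenchymal marker VIM lay between 1612.83 and 1644.01 FPKM in siControl and between 1009.95 and 1024.41 FPKM after knockdown (limma, adjusted p = 2.86e-05). AXL, also high in this line, fell from 499 ± 9.23 to 255 ± 5.25 FPKM (SD, n = 3; limma, adjusted p = 2.46e-06), while CD44 and KRT18 did not pass. ESR1 was listed at 0 in all 6 libraries, and CDH1 stayed at or under 0.45 FPKM. ERBB2 was present at 25.81 to 31.52 FPKM. Among markers of other cell types, the fibroblast gene COL1A1 fell from 5.72 ± 0.441 to 4.67 ± 0.386 FPKM (SD, n = 3; limma, adjusted p = 0.0332, a call lost without siControl replicate 2 or 3 or siPHF20L1 replicate 1 or 2, with 0.0626 to 0.121) and the leukocyte gene PTPRC lay between 0.87 and 1.43 FPKM, while PECAM1, CDH5, CD3E and ALB stayed at or under 0.50 FPKM. The part of such cells in the results was not tested.

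The libraries numbered 1 stood apart from the others in both groups. Over all genes tested, the median absolute log2 difference was 0.058 between siControl 2 and 3 and 0.055 between siPHF20L1 2 and 3, against 0.132 to 0.146 for pairs that included a library numbered 1. For the 39 genes the same medians were 0.062 and 0.049 against 0.148 to 0.201. In 23 of the 39 genes (59.0%), the library numbered 1 was the highest of its group in both groups, which held for 37.2% of all genes tested. Where a difference is also given within the number 1 or within the numbers 2 and 3, it compares siPHF20L1 with siControl libraries of those numbers only and has no test.

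**Figure D1:**
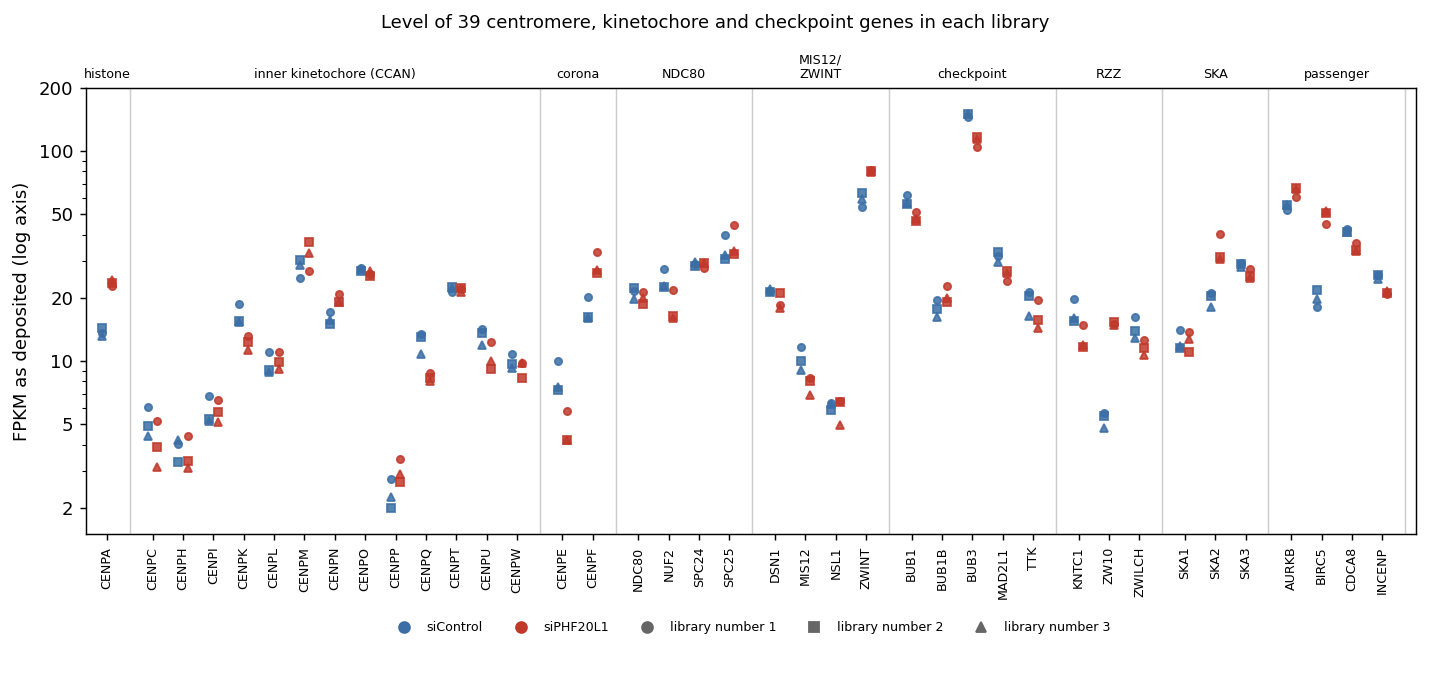
FPKM as deposited (vertical, log axis) of the 39 genes in each library, by complex; blue points are siControl, red points siPHF20L1, and the symbol gives the library number. BUB3 is the highest gene and CENPP the lowest, and ZW10 and BIRC5 show the widest gaps between the groups.

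In siControl libraries the genes spanned from 2.33 ± 0.386 FPKM (SD, n = 3) for CENPP, a CCAN protein, to 149 ± 3.26 FPKM (SD, n = 3) for BUB3, a checkpoint protein. All 39 passed the filter on low values (at least 1 FPKM in at least 3 libraries), which left 11560 genes in the fit. The sum of the 39 genes was 931 ± 26.7 FPKM in siControl and 945 ± 22.3 FPKM after knockdown (SD, n = 3), with individual sums of 958.7, 929.9 and 905.4 against 970.2, 937.8 and 927.4 FPKM. The 2 sets of sums overlapped, with siPHF20L1 3 below siControl 1 and siControl 2. Single genes moved in both directions.

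After knockdown of PHF20L1, 8 of the 39 genes rose and 13 fell (limma on log2(FPKM + 1), Benjamini-Hochberg adjusted p under 0.05 over all genes tested), and 18 did not pass. ZW10, BIRC5, CENPA, SKA2 and CENPF rose by 0.69 to 1.35 on the log2 scale, and the largest falls were those of CENPE, by 0.69, and CENPQ, by 0.51. Of all 11560 genes tested, 58.6% passed in either direction, 34.0% as higher and 24.7% as lower, against 53.8%, 20.5% and 33.3% of the 39 genes. The share that passed was thus near the background. The median log2 difference of the 39 genes was -0.07 (-0.06 within the number 1 and -0.08 within the numbers 2 and 3), beside 0.05 for all genes tested. In 23 of the 39 genes (59.0%) every library of one group lay above every library of the other, beside 63.7% of all genes tested. In a fit blocked on replicate number, 12 genes passed as higher and 17 as lower (30.8% and 43.6%, beside 42.8% and 33.3% of all genes tested in that fit). The count of falls was 8 without siPHF20L1 replicate 3, and also 8 with low genes kept in, that is, without the filter. Over all genes tested, the count of falls was lower in these settings too, by a smaller share.

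**Figure D2:**
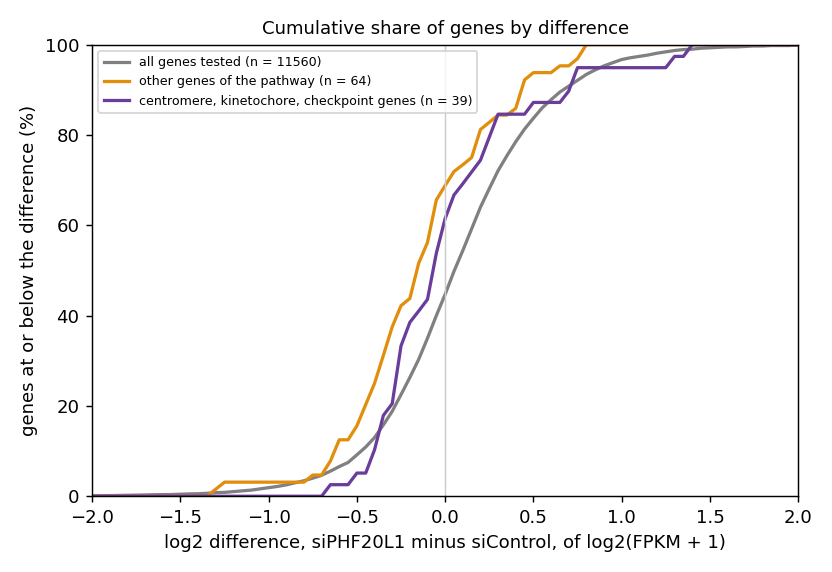
Share of genes (vertical, percent) with a log2 difference at or below the value on the horizontal axis, for the 39 genes, 64 other genes of the pathway and all 11560 genes tested. The curve of the 39 genes runs above that of all genes around 0, with 66.7% against 49.8% at or below 0.05, and the curves meet near 0.60.

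**Figure D3:**
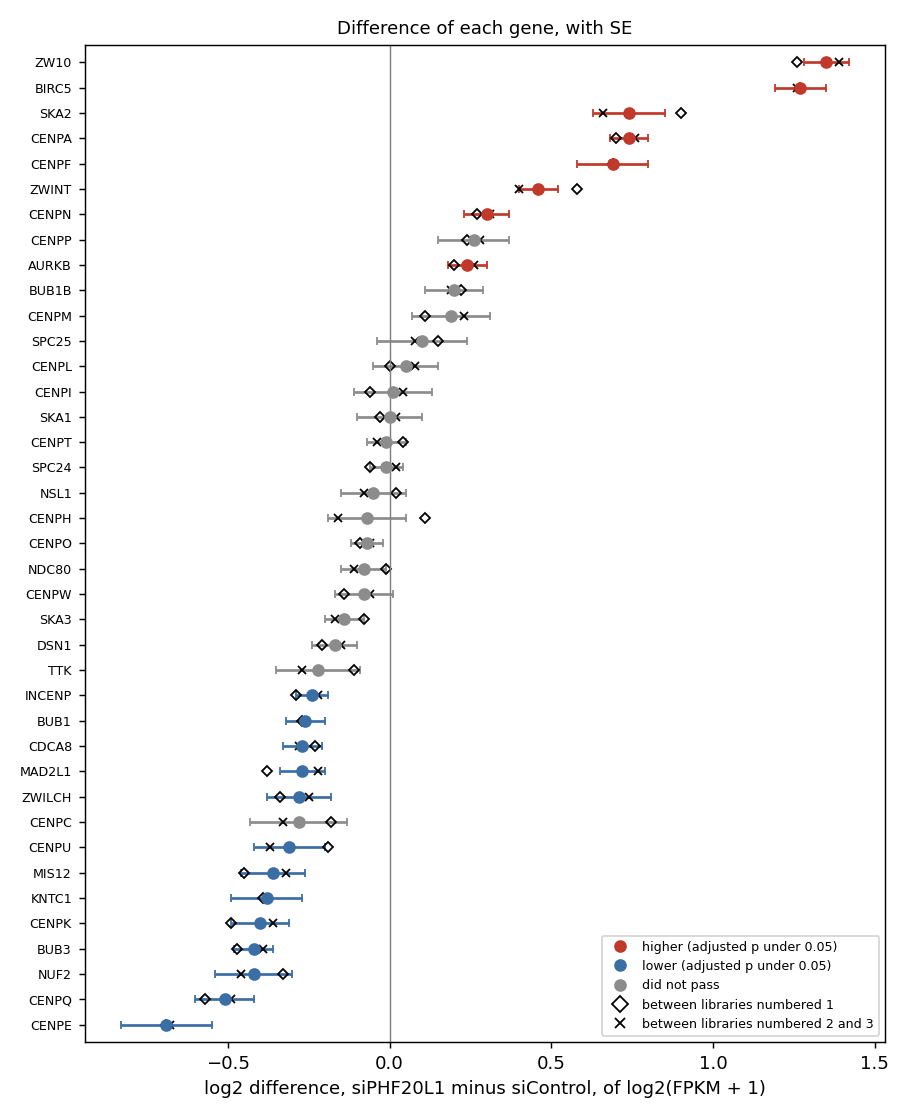
Log2 difference (siPHF20L1 minus siControl, on log2(FPKM + 1)) of each gene with its SE; colour gives the call, open diamonds mark the difference within the number 1 and crosses that within the numbers 2 and 3. All 21 genes that passed have both marks on the same side of 0, from ZW10 at 1.35 to CENPE at -0.69. The marks come from the same libraries as the call, so their shared sign is no separate support.

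Promoters of genes that peak in G2 and mitosis often hold a CHR element, a binding site of the MuvB complexes, near the start site, with CCAAT boxes bound by NF-Y upstream of it. RefSeq promoter windows (GRCh38.p14, 300 bases, most of them before the start) were matched for 32 of the 39 genes and searched on both strands for the CHR word TTTGAA and for CCAAT. The CHR word was held by 16 of the 32 windows, beside 9.35% of the windows of genes tested and 15.4% of all windows. CCAAT was held by 20 of the 32 (62.5%), beside 36.8% of the windows of genes tested. By direction, CCAAT was in all 7 windows of genes that rose, in 9 of 11 of genes that fell and in 4 of 14 of genes that did not pass, and the CHR word in 5 of 7, 4 of 11 and 7 of 14. The related word TTCGAA was in 3 of the 32 windows (9.38%, beside 1.70% of the windows of genes tested), those of BUB1, CENPW and NDC80. An E2F word was in 2 of the 32 (6.25%, beside 3.82% of the windows of genes tested), those of CENPA and MIS12. These shares describe letters anywhere in a window, whatever their place, and were not tested. In the 5 windows of genes that rose, the CHR word did not always lie near the start. Its first base was at -224 in ZW10, -31 in ZWINT, -18 in CENPA, 4 in CENPN and 41 in CENPF. That of ZW10 lay before its CCAAT word, at -146.

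The promoters of 2 genes that rose (CENPA, ZWINT) and 2 that fell (CDCA8, INCENP) were picked by hand as examples that hold both words. In each, a CCAAT word lies before the CHR word, but the distance between them and the strand of the words differ. Whether the arrangement goes with the direction of change was not tested. Each stretch of 145 bases runs 5′ to 3′ on the gene's own strand and ends with the tenth base from the start site. Capitals mark TTTGAA or CCAAT on either strand, so they also read TTCAAA and ATTGG. The coordinates (GRCh38.p14) are chr2:26785921-26786065, plus strand, for CENPA, chr10:56361250-56361394, minus strand, for ZWINT, chr1:37692381-37692525, plus strand, for CDCA8, and chr11:62123876-62124020, plus strand, for INCENP.
CENPA: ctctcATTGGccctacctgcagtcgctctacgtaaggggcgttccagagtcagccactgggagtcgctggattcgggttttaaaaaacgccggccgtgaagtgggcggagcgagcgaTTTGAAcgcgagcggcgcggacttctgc
ZWINT: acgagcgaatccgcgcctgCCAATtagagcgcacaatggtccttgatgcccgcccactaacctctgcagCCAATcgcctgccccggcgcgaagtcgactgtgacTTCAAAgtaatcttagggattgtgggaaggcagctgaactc
CDCA8: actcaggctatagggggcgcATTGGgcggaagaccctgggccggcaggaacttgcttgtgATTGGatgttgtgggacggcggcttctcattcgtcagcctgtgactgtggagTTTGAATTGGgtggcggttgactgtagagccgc
INCENP: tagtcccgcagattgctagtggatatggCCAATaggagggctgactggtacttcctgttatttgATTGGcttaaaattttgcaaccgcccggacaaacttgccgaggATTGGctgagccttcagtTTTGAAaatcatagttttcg
The first base of the CHR word lies 18 bases before the start in CENPA, 31 in ZWINT, 23 in CDCA8 and 10 in INCENP. In CDCA8 its last letter is also the first letter of an ATTGG word.

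CENPA (Entrez 1058), the centromeric histone itself, stood at 13.65, 14.29 and 13.13 FPKM in siControl and at 22.75, 23.65 and 24.22 FPKM after knockdown. Every siPHF20L1 library lay well above every siControl library. The rise was 1.72-fold by the ratio of means, with a log2 difference of 0.74 (SE 0.06, limma, adjusted p = 1.76e-05), and 0.70 and 0.76 within the number 1 and the numbers 2 and 3.

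Of the 13 CCAN genes in the set, 1 rose, 3 fell and 9 did not pass (30.8% passed, beside 58.6% of all genes tested). Their log2 differences ran from -0.51 to 0.30, with a median of -0.07. Further CCAN genes were counted in other lists. ITGB3BP, in the list for centromere assembly, rose by 0.45 (limma, adjusted p = 0.000762). APITD1 (CENP-S) and STRA13 (Entrez 201254, CENP-X), among the other kinetochore genes, did not pass. Their log2 differences were -0.09 and 0.03 (limma, adjusted p = 0.517 and 0.796). CENPN, which reads the CENPA nucleosome directly, stood at 17.08, 14.96 and 15.63 FPKM in siControl and at 20.83, 19.18 and 19.18 FPKM after knockdown, and rose by 0.30 (SE 0.07, adjusted p = 0.00597). Its groups did not overlap. CENPQ, which with CENPU, CENPO, CENPP and ITGB3BP (CENP-R) forms a subcomplex that helps to recruit PLK1, fell from 13.46, 13.00 and 10.79 to 8.76, 8.26 and 8.06 FPKM (log2 difference -0.51, SE 0.09, adjusted p = 0.00114). CENPK, a partner of CENPH and CENPI, fell from 18.77, 15.47 and 15.42 to 13.11, 12.37 and 11.35 FPKM (-0.40, SE 0.09, adjusted p = 0.00507). Both stayed below every siControl library. CENPU fell from 14.16, 13.53 and 11.93 to 12.26, 9.21 and 9.99 FPKM (-0.31, SE 0.11, adjusted p = 0.0332), and its groups overlapped, since siPHF20L1 1 lay above siControl 3.

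The CCAN genes that did not pass included CENPC, a scaffold that contacts the CENPA nucleosome, at 6.03, 4.92 and 4.38 FPKM in siControl and 5.19, 3.90 and 3.14 FPKM after knockdown (log2 difference -0.28, adjusted p = 0.15). In both groups its highest value was in the library numbered 1, and in the blocked fit it passed as lower (limma, adjusted p = 0.00213), as it did without siPHF20L1 replicate 1 (0.0169). CENPP was at 2.75, 1.99 and 2.25 against 3.42, 2.66 and 2.90 FPKM (0.26, adjusted p = 0.0647), and it passed as higher in the blocked fit (limma, adjusted p = 0.00409) and without siControl replicate 1 (0.0172). CENPM, at 27.9 ± 2.77 and 32.2 ± 4.96 FPKM (SD, n = 3), did not pass (limma, adjusted p = 0.181) but passed as higher in the blocked fit (0.00132) and without siPHF20L1 replicate 1 (0.0169). CENPH, CENPI, CENPL, CENPO, CENPT and CENPW had log2 differences between -0.08 and 0.05 and did not pass in the blocked fit either, with limma adjusted p from 0.104 to 0.892 there. CENPO, whose groups did not overlap, passed as lower with median-ratio size factors (-0.14, limma, adjusted p = 0.0451). So within the CCAN neither CENPH nor CENPI followed their partner CENPK past the threshold.

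The calls of CENPN and CENPU were lost with the libraries numbered 2 and 3 averaged (limma, adjusted p = 0.0590 and 0.127). That of CENPU was also lost without siControl replicate 1 (0.0777) or 2 (0.0947) and without siPHF20L1 replicate 2 (0.113) or 3 (0.101). The same held with low genes kept in (limma, adjusted p = 0.102) and with FPKM scaled to equal sums (0.0611). Exons of other genes on the opposite strand cover 12.8% of the exon bases of CENPN (by CMC2), 11.7% of CENPU (by PRIMPOL), 10.8% of CENPT (by TSNAXIP1, with THAP11 adding 6.86%), 27.0% of CENPO (by ADCY3) and 38.0% of CENPP (by IPPK) in GENCODE release 29. Whether the counting used strand was not given in the sources used here, so the values of these genes are uncertain. GENCODE also lists pseudogenes of CENPC, CENPI and CENPU, whose share in their values is uncertain.

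The large coiled-coil proteins of the outer corona went opposite ways. CENPF, a farnesylated protein of the nuclear matrix and the kinetochore, stood at 20.13, 16.26 and 16.04 FPKM in siControl and at 33.14, 26.13 and 27.06 FPKM after knockdown, a 1.65-fold rise (log2 difference 0.69, SE 0.11, adjusted p = 0.000841). CENPE, the kinesin motor that carries chromosomes to the metaphase plate, stood at 9.98, 7.25 and 7.54 FPKM in siControl and at 5.80, 4.23 and 4.22 FPKM after knockdown, a 1.74-fold fall (-0.69, SE 0.14, adjusted p = 0.00285). Neither gene's groups overlapped, and both had the library numbered 1 highest in each group. The differences were 0.69 and 0.69 for CENPF and -0.69 and -0.68 for CENPE within the number 1 and the numbers 2 and 3.

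In the NDC80 complex only NUF2 of 4 genes passed (25.0%, beside 58.6% of all genes tested). NUF2, which pairs with NDC80 to form the microtubule-binding end, fell from 27.58, 22.60 and 22.65 to 21.74, 16.32 and 16.06 FPKM (log2 difference -0.42, SE 0.12, adjusted p = 0.0183), with no overlap. NDC80 itself was at 21.1 ± 1.30 and 20 ± 1.33 FPKM, SPC24 at 29 ± 0.647 and 28.8 ± 0.908 FPKM, and SPC25 at 34.1 ± 5.11 and 36.9 ± 6.71 FPKM (SD, n = 3). Their log2 differences of -0.08, -0.01 and 0.10 did not pass. SPC25 passed as higher in the blocked fit (limma, adjusted p = 0.0201). The call of NUF2 was lost without siPHF20L1 replicate 2 (limma, adjusted p = 0.0607) or 3 (0.0711), with the libraries numbered 2 and 3 averaged (0.0775) and with low genes kept in (0.0819).

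ZWINT, which binds the outer scaffold KNL1 and helps to bring the RZZ complex to kinetochores, rose from 53.96, 62.95 and 58.83 to 80.90, 80.81 and 79.89 FPKM (log2 difference 0.46, SE 0.06, adjusted p = 0.000389). The siPHF20L1 libraries lay within 1.01 FPKM of each other and above every siControl library. MIS12, the subunit that names its complex, fell from 11.70, 10.04 and 9.09 to 8.28, 8.07 and 6.87 FPKM (-0.36, SE 0.10, adjusted p = 0.0144), a call that was lost without siPHF20L1 replicate 3 (limma, adjusted p = 0.0599) and with low genes kept in (0.0558). Exons of DERL2 on the opposite strand cover 9.53% of its exon bases, so its values are uncertain in the same way. DSN1, a partner of MIS12, was at 21.6 ± 0.431 and 19.2 ± 1.70 FPKM (SD, n = 3) with no overlap of the groups. DSN1 did not pass (limma, adjusted p = 0.0694), but it passed as lower in the blocked fit (0.0126), without siPHF20L1 replicate 2 (0.0225) and after quantile (0.0227) or median-ratio (0.0195) scaling. NSL1, the fourth gene here, was at 6.13 ± 0.274 and 5.94 ± 0.846 FPKM and did not pass.

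Among the 5 genes of the spindle checkpoint, 3 fell (60.0%, beside 24.7% of all genes tested), none rose (beside 34.0%) and 2 did not pass. BUB3, the adaptor that brings BUB1 and BUBR1 to the kinetochore, fell from 145.25, 150.97 and 150.82 to 104.68, 116.28 and 113.73 FPKM (log2 difference -0.42, SE 0.06, adjusted p = 0.000369). MAD2L1, which encodes the MAD2 protein that holds CDC20, fell from 31.54, 33.01 and 29.69 to 24.09, 26.97 and 26.37 FPKM (-0.27, SE 0.07, adjusted p = 0.00723). The kinase gene BUB1 fell from 58.2 ± 3.32 to 48.3 ± 2.51 FPKM (SD, n = 3; -0.26, adjusted p = 0.00732). None of these groups overlapped. The call of BUB1 was lost with the libraries numbered 2 and 3 averaged (limma, adjusted p = 0.0650).

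The remaining checkpoint genes had opposite signs. BUB1B, which encodes BUBR1, was at 17.8 ± 1.63 FPKM in siControl and 20.7 ± 1.96 FPKM after knockdown (log2 difference 0.20, adjusted p = 0.0799). TTK, the MPS1 kinase that starts checkpoint signalling, was at 19.4 ± 2.64 and 16.5 ± 2.72 FPKM (-0.22, adjusted p = 0.170). In the blocked fit both passed, BUB1B as higher and TTK as lower (limma, adjusted p = 0.00207 and 0.00263). BUB1B also passed without siControl replicate 1 (limma, adjusted p = 0.0287) and TTK without siPHF20L1 replicate 1 (0.0237). BUB1 and BUB1B, products of an ancient gene duplication, had differences of opposite sign. The ratio of BUB1 to BUB1B FPKM was 3.18, 3.15 and 3.49 in siControl and 2.24, 2.44 and 2.35 in siPHF20L1 libraries, without overlap. GENCODE lists a processed pseudogene of BUB1 and of BUB3, whose share in these values is uncertain.

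The RZZ complex, which brings dynein and the MAD1 and MAD2 proteins to kinetochores, held the largest rise of the set beside 2 falls. ZW10 (Entrez 9183), which also acts in traffic between the endoplasmic reticulum and the Golgi, stood at 5.68, 5.47 and 4.80 FPKM in siControl and at 15.03, 15.29 and 14.92 FPKM after knockdown. The siPHF20L1 libraries lay close together and far above the others. The rise was 2.84-fold, with a log2 difference of 1.35 (SE 0.07, adjusted p = 2.30e-06), and 1.26 and 1.39 within the number 1 and the numbers 2 and 3.

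Its partner KNTC1, which encodes the ROD protein, fell from 19.72, 15.44 and 15.96 to 14.83, 11.71 and 11.91 FPKM (log2 difference -0.38, SE 0.11, adjusted p = 0.0185). ZWILCH, the smallest subunit, fell from 16.26, 13.86 and 12.88 to 12.61, 11.51 and 10.73 FPKM (-0.28, SE 0.10, adjusted p = 0.0331). Neither pair of groups overlapped. The library numbered 1 was the highest of its group in both genes. Both calls were lost with the libraries numbered 2 and 3 averaged (limma, adjusted p = 0.0702 and 0.0980), with low genes kept in (0.0764 and 0.0914), without siPHF20L1 replicate 2 (0.0625 and 0.0782) and without siPHF20L1 replicate 3 (0.0687 and 0.12). That of ZWILCH was also lost without siControl replicate 1 (0.0797) or 2 (0.0651) and with FPKM scaled to equal sums (0.0686). Exons of LCTL and of RPL4, a ribosomal protein gene, cover 7.61% and 3.26% of the exon bases of ZWILCH on the opposite strand, so its values are uncertain too.

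The SKA complex helps the kinetochore to hold on to the shrinking end of a microtubule. Of its 3 genes, SKA2 rose from 21.08, 20.52 and 18.08 to 40.08, 31.35 and 30.71 FPKM (log2 difference 0.74, SE 0.11, adjusted p = 0.000437). The library siPHF20L1 1 stood above the other two of its group, and the difference was 0.90 within the number 1 and 0.66 within the numbers 2 and 3. SKA1 was at 12.5 ± 1.38 FPKM in both groups (SD, n = 3; adjusted p = 0.992). SKA3 was at 28.8 ± 0.601 and 26.0 ± 1.39 FPKM without overlap (-0.14, adjusted p = 0.0647), and passed as lower in the blocked fit (limma, adjusted p = 0.00498), without siPHF20L1 replicate 1 (0.0229) and after quantile (0.0201) or median-ratio (0.0087) scaling. GENCODE lists a processed pseudogene of SKA2, whose share in its values is uncertain.

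In the chromosomal passenger complex all 4 genes passed, 2 in each direction, where 58.6% of all genes tested passed. BIRC5 (Entrez 332), which encodes survivin, the subunit that reads phosphorylated histone H3 and also restrains cell death, stood at 18.09, 21.71 and 19.78 FPKM in siControl and at 44.88, 50.70 and 51.72 FPKM after knockdown. Even the lowest siPHF20L1 library lay far above the highest siControl library. The rise was 2.47-fold, with a log2 difference of 1.27 (SE 0.08, adjusted p = 5.60e-06), and 1.27 and 1.26 within the number 1 and the numbers 2 and 3. AURKB, the Aurora B kinase at the core of the complex, rose from 54.3 ± 1.74 to 64.5 ± 3.56 FPKM (SD, n = 3; 0.24, SE 0.06, adjusted p = 0.00755).

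CDCA8, which encodes borealin, the partner of survivin at the centromere, fell from 42.68, 41.30 and 41.03 to 36.34, 33.98 and 33.26 FPKM (log2 difference -0.27, SE 0.06, adjusted p = 0.00362). INCENP, the scaffold that activates Aurora B, fell from 25.3 ± 0.709 to 21.2 ± 0.373 FPKM (SD, n = 3; -0.24, SE 0.05, adjusted p = 0.00463). None of the 4 genes had overlapping groups. The calls of AURKB, CDCA8 and INCENP were lost with the libraries numbered 2 and 3 averaged (limma, adjusted p = 0.0850, 0.0595 and 0.0567), and that of AURKB also with median-ratio size factors (0.0618). As shown above, the promoters of CDCA8 and INCENP hold the CHR and CCAAT words that the promoter of CENPA also holds. The window of AURKB holds CCAAT without TTTGAA, and none was matched for BIRC5.

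Where paired genes moved in opposite directions, their ratio had to change by more than either gene alone. The pairs were picked by hand, so the ratios restate the differences given above and add no test. The ratio of ZW10 to KNTC1 FPKM was 0.288, 0.354 and 0.301 in siControl and 1.01, 1.31 and 1.25 in siPHF20L1 libraries, so that ZW10 went from the lowest of the 3 RZZ genes to the highest. BIRC5 to INCENP was at 0.701, 0.849 and 0.808 in siControl and 2.15, 2.41 and 2.39 in siPHF20L1 libraries. CENPF to CENPE went from 2.02, 2.24 and 2.13 to 5.71, 6.18 and 6.41. These ratios did not overlap between the groups. An exact permutation test of 3 against 3 libraries cannot give a two-sided p below 0.10, so none is given.

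The ratio of CENPA to CENPC was 2.72 ± 0.4 in siControl and 6.05 ± 1.66 in siPHF20L1 libraries (SD, n = 3), with the spread of the latter running from 4.38 to 7.71. SKA2 to SKA3 was at 0.690 ± 0.0414 and 1.31 ± 0.128, and ZWINT to MIS12 at 5.78 ± 1.02 and 10.5 ± 1.01. By contrast, CDCA8 to INCENP stood at 1.65 ± 0.0316 and 1.63 ± 0.0998, and KNTC1 to ZWILCH at 1.19 ± 0.0660 and 1.10 ± 0.0797. In these last pairs both genes fell, and the ratios of the 2 groups overlapped.

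**Figure D4:**
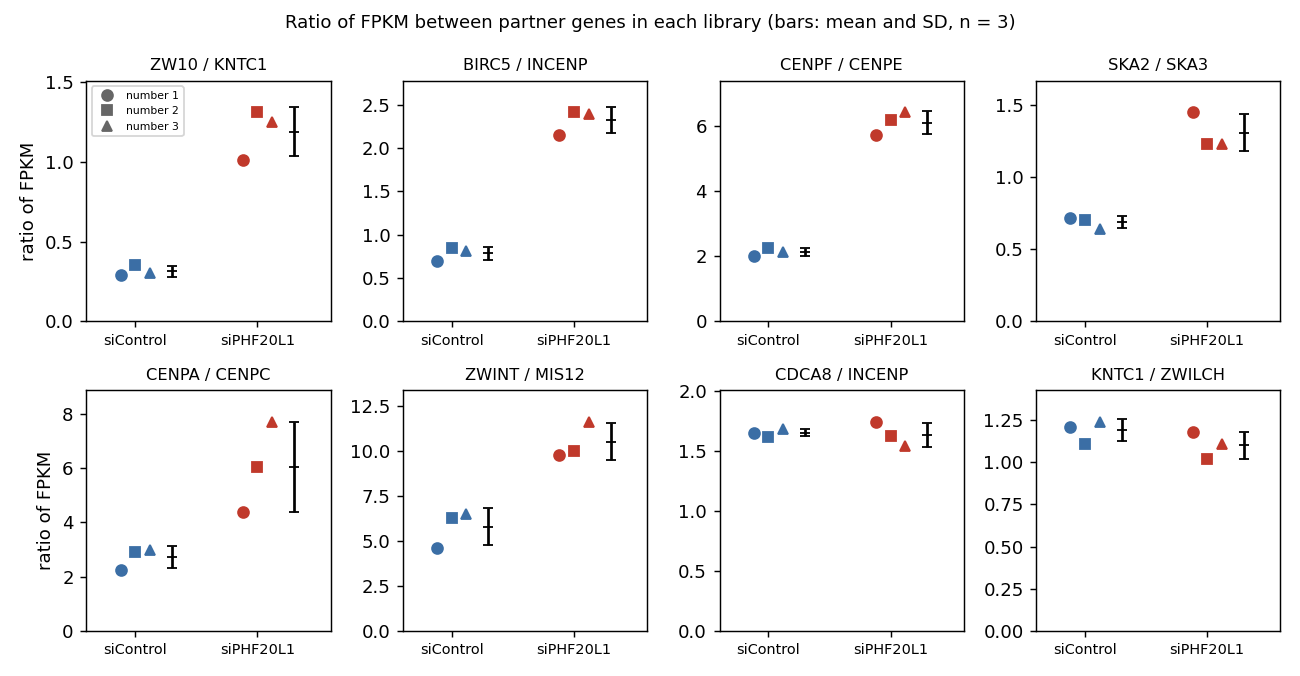
Ratio of FPKM between genes paired by hand (vertical, from 0) in each library, with siControl in blue, siPHF20L1 in red, the symbol giving the library number and the bar the mean and SD of 3 libraries. The first 6 ratios separate the groups, ZW10 to KNTC1 from 0.314 to 1.19 on average, while CDCA8 to INCENP and KNTC1 to ZWILCH overlap.

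Other genes of the pathway were taken from 4 lists with 64 members, all of them tested, of which 11 rose and 28 fell (17.2% and 43.8%, beside 34.0% and 24.7% of all genes tested). Their median log2 difference was -0.15. In the blocked fit, 17 passed as higher and 35 as lower (26.6% and 54.7%, beside 42.8% and 33.3% of all genes tested). MKI67, a marker of dividing cells, fell from 109 ± 6.45 to 95.1 ± 7.23 FPKM (SD, n = 3; log2 difference -0.20, limma, adjusted p = 0.0390). That call was lost without siControl replicate 1 (limma, adjusted p = 0.0929) or 3 (0.0786), without siPHF20L1 replicate 2 (0.135) or 3 (0.129) and in 4 further alternatives. Whether the share of cycling cells had a part in the values of the 39 genes was not tested.

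In the list for the assembly of centromeric chromatin, 2 of 10 genes rose and 5 fell, beside 34.0% and 24.7% of all genes tested. HJURP, the chaperone that deposits CENPA, fell from 51.67, 53.39 and 52.34 to 36.30, 36.22 and 36.31 FPKM (log2 difference -0.52, adjusted p = 3.93e-05), while CENPA rose. OIP5, a subunit of the MIS18 complex that directs HJURP to the centromere, fell from 13.6 ± 1.14 to 9.67 ± 1.77 FPKM (SD, n = 3; -0.46, adjusted p = 0.00895). In the other direction ITGB3BP rose from 9.13 ± 0.650 to 12.8 ± 0.475 FPKM (0.45, adjusted p = 0.000762). CENPB, which binds a motif in alpha satellite DNA, rose from 35.9 ± 4.57 to 47.9 ± 7.86 FPKM (0.40, adjusted p = 0.0270). The groups of CENPB overlapped, and its call was lost without siControl replicate 1 (limma, adjusted p = 0.0651), without siPHF20L1 replicate 2 (0.0832) or 3 (0.0985) and in 3 further alternatives.

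Of 19 further kinetochore and checkpoint genes, 2 rose and 10 fell (10.5% and 52.6%, beside 34.0% and 24.7% of all genes tested). KNL1, the scaffold on which BUB1, BUB3 and ZWINT assemble, fell from 14.29, 10.50 and 10.76 to 5.01, 3.53 and 3.94 FPKM (log2 difference -1.31, adjusted p = 7.06e-05). SGO2, a shugoshin that protects centromeric cohesion, fell from 23.20, 19.17 and 17.53 to 8.25, 7.45 and 7.13 FPKM (-1.28, adjusted p = 1.72e-05). These falls were larger than any among the 39 genes. MAD1L1, the kinetochore anchor of MAD2, rose from 32.2 ± 4.75 to 55.8 ± 9.20 FPKM (SD, n = 3; 0.77, adjusted p = 0.00146) while MAD2L1 fell. BOD1, which regulates a phosphatase at kinetochores, rose from 32.1 ± 1.47 to 50.1 ± 1.41 FPKM (0.63, adjusted p = 3.16e-05).

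The checkpoint acts on the anaphase-promoting complex, a ubiquitin ligase. Of 19 genes of this complex and its partners, 6 rose and 7 fell (31.6% and 36.8%, beside 34.0% and 24.7% of all genes tested). ANAPC15, a subunit that turns over the checkpoint complex, rose from 12.4 ± 1.34 to 22.0 ± 2.67 FPKM (SD, n = 3; log2 difference 0.78, adjusted p = 0.000247). CDC27, the gene of another subunit of the ligase, rose from 27.6 ± 2.72 to 38.1 ± 3.48 FPKM (0.45, adjusted p = 0.00228). ANAPC5 fell from 57.4 ± 2.62 to 33.6 ± 1.07 FPKM (-0.76, adjusted p = 1.22e-05). UBE2S, the chain-extending enzyme, fell from 391 ± 78.0 to 246 ± 48.9 FPKM (-0.66, adjusted p = 0.0118), with the library numbered 1 lowest in each group. Its call was lost with low genes kept in (limma, adjusted p = 0.0727).

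Of 16 genes of cohesin and its regulators, 1 rose and 6 fell (6.25% and 37.5%, beside 34.0% and 24.7% of all genes tested). SMC1A, a core subunit of the ring, rose from 16.2 ± 0.833 to 27.1 ± 1.27 FPKM (SD, n = 3; log2 difference 0.70, adjusted p = 3.29e-05). PTTG1, which encodes securin, the inhibitor of separase, fell from 252 ± 7.71 to 160 ± 2.85 FPKM (-0.65, adjusted p = 1.63e-05). ESCO2, which acetylates cohesin in S phase, fell from 9.08 ± 1.34 to 5.53 ± 0.315 FPKM (-0.62, adjusted p = 0.000811). No groups of these 3 genes overlapped.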

How the data were processed

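The authors deposited FPKM, 1 value per Entrez gene and library, per the file headers. GRCh37 and the tools TopHat2 2.1.1, HTSeq 0.6.0 and Bowtie 0.12.2 are named, without roles, per the submitters' processing notes. Strand use, annotation and the FPKM program are not given in the sources used here. The 26 symbols turned into dates were restored through Entrez identifiers.

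Here limma 3.58.1 (R 4.3.3, trend in the prior variance, no block) was fitted to log2(FPKM + 1) of all genes with at least 1 FPKM in at least 3 of 6 libraries, with Benjamini-Hochberg adjustment over the 11560 genes, two-sided, threshold 0.05. Fold changes on this scale understate low genes. The script was tested on simulated data. Depth was estimated from the steps of low values in genes with 1 transcript shorter than 1.5 kb, with GENCODE release 29 lengths.

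The replicate numbers were checked for pairing. Deviations from the group means, across genes, correlated at 0.73, 0.44 and 0.42 for the same-numbered libraries 1, 2 and 3, all over 0.1. By this check of the data, not by the labels, the libraries numbered 1 go together. However, siControl 3 with siPHF20L1 2 gave 0.49 and siControl 2 with siPHF20L1 3 gave 0.31. Numbers 2 and 3 were thus not told apart, and their pairing is not shown. The fit blocked on replicate number is given where it changes a call.

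Members, lists and motifs were chosen with earlier results of these data known, so they are described by counts and medians only. Named with values in every library were the 20 members with the largest absolute difference, and of each other list the 2 largest rises and falls that passed. The 15 alternatives covered pseudocount, filter, scaling, block and left-out libraries. GENCODE release 29 and the RefSeq windows belong to GRCh38, so no coordinates were set against the files.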

Additional observations from a re-analysis of the deposited data

How the results depend on the processing

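None of the 21 genes that passed changed direction in any of the 15 alternatives, and 11 of them passed in all 15. The count of genes that fell was 13, and it was 8 without the filter on low values and 6 with the libraries numbered 2 and 3 averaged, which leaves fewer samples. It lay between 8 and 16 when 1 library was left out, the lowest without siPHF20L1 replicate 3, and the count of rises between 8 and 10. Over all genes tested, the count of falls was also lower without the filter, with averaged libraries and without siPHF20L1 replicate 3. Each of these drops was, as a share of the calls, smaller than that among the 39 genes. With the replicate number as a block, 12 genes passed as higher and 17 as lower, and 17 against 11 of the other pathway genes passed as higher. Over all genes tested the block raised the calls from 3926 to 4946 higher and from 2851 to 3846 lower. The block added the calls of 8 members, all named above, and changed no other member's call. The median of the 39 genes stayed between -0.14 and -0.03.

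Signs turned only for 8 genes that did not pass. With quantile normalization CENPL was at -0.03, CENPI at -0.08 and SKA1 at -0.05, and with median-ratio size factors these were at -0.02, -0.06 and -0.07. Scaled to equal sums, CENPT was at 0.00 and SPC24 at 0.01. In the libraries numbered 2 and 3 alone SPC24 was at 0.02, and with these averaged CENPI and SKA1 were at -0.01. With 1 library left out, SPC25 ranged from -0.04 to 0.22, CENPL from -0.01 to 0.14, CENPI from -0.07 to 0.12, SKA1 from -0.06 to 0.08, CENPT from -0.04 to 0.00, SPC24 from -0.02 to 0.02, NSL1 from -0.10 to 0.06 and CENPH from -0.19 to 0.01. The cause was not tested. The lowest value of a member was 1.99 FPKM, where 1 fragment in 1 kb is worth 0.0569 to 0.0585 FPKM, so counting error is largest for genes at such levels.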
